A study of Arabidopsis thaliana with 12 samples.

Results

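The seed coat with the endosperm inside it was compared with the embryo in ripe seeds of the Arabidopsis thaliana wild type Col-0. The comparison rests on the 6 libraries labelled Col-0 out of 12 in the series, chosen by the labels for genotype and tissue: 3 of seed coat with endosperm and 3 of embryo. The other 6 libraries, 3 of seed coat and 3 of embryo, came from the double mutant Atsdr4l-5 dig2; they share the estimate of spread and serve in the comparison of genotypes at the end. All plants grew in long days of 16 h light and 8 h dark. Seeds were harvested ripe, about 18 days after pollination, from yellowing to brown siliques, left at room temperature for 2 days and placed in water for 1 to 2 h. They were then pressed open between glass slides, and needles and forceps were used to part the intact embryos from the coats. The design text calls the 3 replicates of each group biological. The number of seeds or plants behind each replicate is not stated, so p-values measure the spread between these samples. The protocol leaves the endosperm in the seed coat samples, so a difference between the samples is one between embryo and everything around it.

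The Arabidopsis seed has tissues of 3 origins. The embryo makes up most of the ripe seed and stores proteins and oil in its cotyledons. Around it lies a thin layer of living endosperm, often likened to the aleurone of cereals, which is known to hold back germination, to release abscisic acid and to respond to gibberellin by loosening its walls. The outer seed coat is maternal. Its cells made mucilage, tannins and lipid barriers during development and are known to die as the seed ripens, so RNA from this fraction is usually read as coming largely from the endosperm. In bulk samples of this kind, fewer cells of a type and less RNA per cell cannot be told apart.

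Gene reads numbered 10301817 to 14947969 in the seed coat libraries and 14003564 to 15047509 in the embryo libraries. Expression is given as CPM (counts per 1e+06 reads, after TMM scaling) and as TPM, which also divides by exon length, where genes are compared with each other. Log2 fold changes are seed coat over embryo with their standard error. Genes are called higher (rose) or lower (fell) in seed coat where the adjusted p (edgeR quasi-likelihood F test, Benjamini-Hochberg over all genes tested) was under 0.05. Libraries of one tissue correlated at 0.980 to 0.984 in seed coat and 0.981 to 0.986 in embryo (log2 CPM over genes), and libraries of different tissues at 0.874 to 0.895. No library stood apart from its group. Reads off annotated exons made up 2.1% to 2.26% in seed coat and 3.43% to 3.70% in embryo.

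A large part of the transcriptome differed between the tissues. Of 16238 genes tested, 7575 passed the test (46.6%): 3966 were higher in the seed coat (24.4%) and 3609 were lower (22.2%). At a difference of at least 2-fold, 1520 genes were higher (9.36%) and 1615 lower (9.95%), and at 8-fold or more 503 were higher and 327 lower. The values of the tissues did not overlap for 9049 genes (55.7%). The top 10 genes took 25.5% to 28.3% of reads in seed coat against 18.8% to 19.3% in embryo. The calls depend on the scaling, and the cause of that was not tested. Scaled to total reads alone, the median log2 difference of all genes was -0.46 in place of 0.01, 1635 genes were higher and 8597 lower. Changes are read relative to that shift. Of 201 calls in the gene lists described below, 41 were lost under it, and 13 members changed sign.

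**Figure D1:**
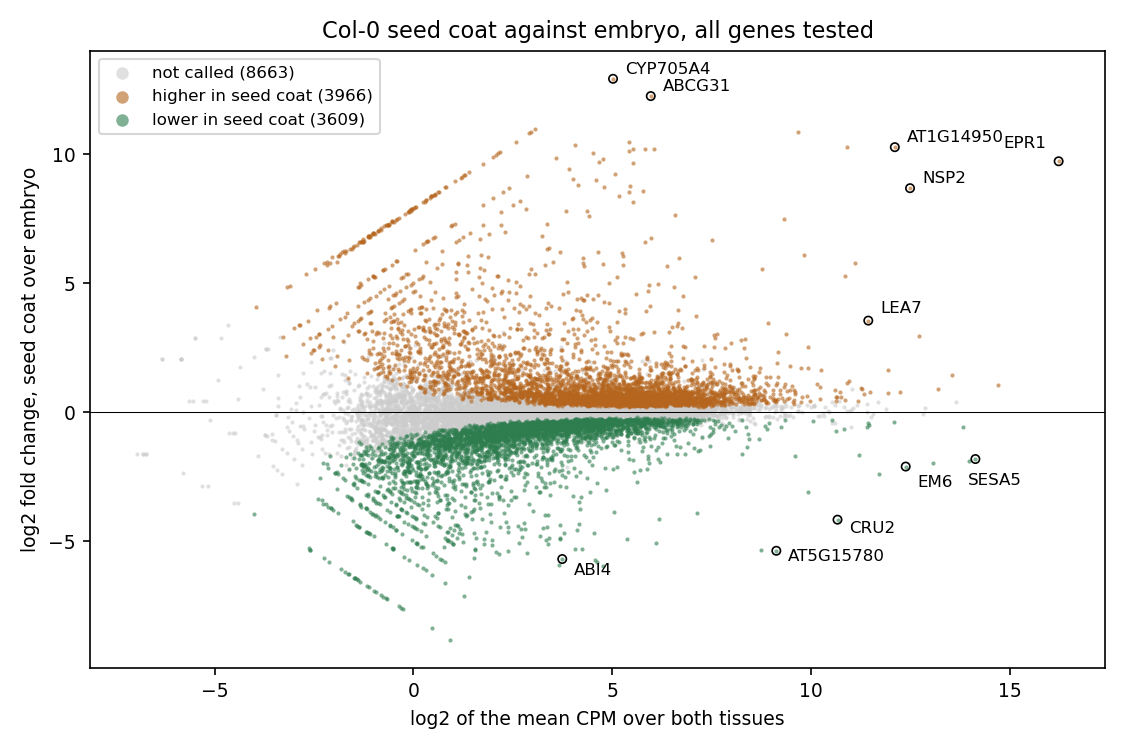
Difference between Col-0 seed coat and embryo (log2 fold change, vertical axis) against the log2 mean CPM over both tissues (horizontal axis) for the genes tested, coloured by the adjusted p under 0.05, with 3966 genes higher and 3609 lower in seed coat. The slanting lines of points at the left are genes with 0 or very few reads in 1 tissue, whose fitted fold change depends on the prior count, and genes with no read in either tissue are not drawn; EPR1 stands alone at the upper right.

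The most abundant transcript of the seed coat fraction was EPR1 (AT2G27380, chromosome 2), which encodes a proline-rich, extensin-like cell wall protein known as an endosperm marker. EPR1 had 134800, 163400 and 164600 CPM in seed coat and 172, 196 and 179.7 CPM in embryo. The tissues were thus far apart in every library, with EPR1 taking 13.5%, 15.02% and 15.3% of all gene reads in the seed coat libraries and 0.0238%, 0.0255% and 0.0228% in the embryo libraries (log2 fold change 9.72 ± 0.37, edgeR adjusted p = 1.00e-09). Per length, EPR1 reached 94970 ± 5579 TPM in seed coat and 143 ± 10.2 TPM in embryo (SD, n = 3). A second extensin-like gene, AT5G59170, had 3849, 4120 and 5132 CPM in seed coat and 74.5, 74.3 and 88.0 CPM in embryo (log2 fold change 5.79 ± 0.17, edgeR adjusted p = 9.79e-11).

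Genes of the MLP family were also far higher in seed coat. MLP proteins are named after the major latex protein of poppy, and their fold is that of small ligand-binding proteins. Of 24 family members listed, 7 had enough reads to be tested and all 7 rose, beside 24.4% of all genes tested. The 17 others had no more than 4 reads in any tissue. MLP423, AT1G14940 and AT1G14960 were nearly absent from embryo, so for them inclusion in the test and direction are tied. AT1G14950 had 7973, 10000 and 8599 CPM in seed coat and 5.75, 8.44 and 7.26 CPM in embryo. MLP31 (AT1G70840) had 3697, 4210 and 3728 CPM in seed coat and 3.45, 3.93 and 2.03 CPM in embryo, and AT1G14940 had 1303, 1631 and 1956 CPM in seed coat and 0.527, 0.968 and 1.13 CPM in embryo. Every seed coat library of these 3 genes was far above every embryo library (log2 fold change 10.27 ± 0.28, edgeR adjusted p = 5.91e-11 for AT1G14950). Together the MLP genes took 1.46% to 1.64% of reads in the seed coat libraries and 0.00419% to 0.00669% in the embryo libraries. AT1G14930, AT1G14940, AT1G14950 and AT1G14960 lie side by side on chromosome 1. The smallest difference among these neighbours was that of AT1G14930, at 6.08 ± 0.29 on the log2 scale.

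Upstream sequences of abundant genes called at 4-fold or more on each side are shown because the reserve and desiccation genes of seeds are textbook targets of factors that bind the RY motif (CATGCA) and the ABRE core (ACGTG). The 250 bases before the annotated start were read from RefSeq TAIR10.1 for 5 genes of high TPM whose window overlapped no other coding gene, with matches to either motif on either strand in capitals. The genes are EPR1 (chr2:11713161-11713410, plus strand), AT1G14950 (chr1:5158270-5158519, minus strand) and LEA7 (chr1:19619474-19619723, plus strand), all higher in seed coat, and EM6 (chr2:16780369-16780618, minus strand) and CRU3 (chr4:14087306-14087555, plus strand), both lower in seed coat.
EPR1: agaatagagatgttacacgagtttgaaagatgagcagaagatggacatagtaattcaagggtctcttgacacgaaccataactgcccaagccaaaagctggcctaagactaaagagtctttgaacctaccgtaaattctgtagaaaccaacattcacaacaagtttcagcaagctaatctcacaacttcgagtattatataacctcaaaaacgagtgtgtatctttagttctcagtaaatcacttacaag
AT1G14950: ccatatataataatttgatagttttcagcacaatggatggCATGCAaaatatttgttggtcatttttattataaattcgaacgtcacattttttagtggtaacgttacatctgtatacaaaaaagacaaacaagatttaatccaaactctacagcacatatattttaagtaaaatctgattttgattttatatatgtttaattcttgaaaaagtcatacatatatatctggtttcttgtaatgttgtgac
LEA7: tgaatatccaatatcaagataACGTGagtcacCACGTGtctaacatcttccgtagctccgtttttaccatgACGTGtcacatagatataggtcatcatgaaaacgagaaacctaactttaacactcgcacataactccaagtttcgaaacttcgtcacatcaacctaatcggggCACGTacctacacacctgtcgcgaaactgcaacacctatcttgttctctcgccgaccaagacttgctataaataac
EM6: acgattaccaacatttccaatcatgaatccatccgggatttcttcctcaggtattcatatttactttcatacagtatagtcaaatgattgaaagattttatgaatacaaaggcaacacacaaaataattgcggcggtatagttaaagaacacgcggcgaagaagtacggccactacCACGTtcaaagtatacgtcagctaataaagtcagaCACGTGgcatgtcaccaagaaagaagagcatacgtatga
CRU3: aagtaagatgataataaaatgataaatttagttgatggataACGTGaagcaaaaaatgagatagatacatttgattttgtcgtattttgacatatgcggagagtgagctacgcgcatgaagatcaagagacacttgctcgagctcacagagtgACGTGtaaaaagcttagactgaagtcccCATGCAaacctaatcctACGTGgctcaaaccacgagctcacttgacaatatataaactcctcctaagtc
The EPR1 window held no match to either motif. The AT1G14950 window held 1 match to RY and none to the ABRE core. The LEA7 window held 5 matches to the ABRE core and none to RY, the EM6 window 3 and none, and the CRU3 window 3 and 1. A G-box (CACGTG) counts as 2 overlapping matches to the core, one on each strand. A match is a run of letters and not a bound site.

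Across genes, the same letters were counted in the 250 bases before the start of 729 coding genes called higher at 4-fold or more in seed coat, of 641 called lower at that size, and of all 15739 tested. RY occurred in 10.8% of the higher genes, 11.5% of the lower genes and 7% of all. The ABRE core occurred in 27.8%, 24.6% and 23.9% in the same order, and the W-box core (TTGAC), a motif bound by WRKY factors, in 49.1%, 41.0% and 44.6%. The site II motif (TGGGCC), known from genes of ribosomes and mitochondria, was rarer on both sides, at 7.96% of the higher and 9.20% of the lower genes against 18.6% of all. The L1 box (TAAATGNA) was found in 9.47%, 11.4% and 9.56%, the G-box in 7.27%, 6.4% and 8.18%, and the telo-box (AAACCCTA) in 2.74%, 3.43% and 3.80%. These shares are descriptions, and no test was made of them.

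Other genes of the mature endosperm were also higher in seed coat. All 6 of 12 mature endosperm genes that could be tested were higher in seed coat, beside 24.4% of all genes tested (median log2 fold change 3.28, against 0.01 for all genes). Of the 6, 5 kept their call whichever library was left out. ABCG25, an exporter of abscisic acid, had 27.6, 26.2 and 31.0 CPM in seed coat and 0.959, 0.645 and 0.957 CPM in embryo (log2 fold change 5.03 ± 0.14, edgeR adjusted p = 5.91e-11). ABCG31, a transporter of the same large family also linked to abscisic acid, had 104, 139.9 and 133 CPM in seed coat and 1 read in all embryo libraries, a ratio of 7089 (95% counting interval 1272 to 280000), with an edgeR adjusted p of 4.87e-10. Both have been placed by studies of Arabidopsis in the endosperm's export of the hormone. With 1 embryo read, inclusion of ABCG31 in the test and its direction are tied. NCED6, an endosperm gene for abscisic acid synthesis, was at 1.93, 1.28 and 3.14 CPM in seed coat and 0.624, 0.430 and 1.07 CPM in embryo (log2 fold change 1.54 ± 0.41, edgeR adjusted p = 0.00899). AAD2, an acyl-ACP desaturase, was at 4, 4.52 and 2.51 CPM in seed coat and 1.39, 1.45 and 1.24 CPM in embryo (log2 fold change 1.45 ± 0.24, edgeR adjusted p = 0.000432). MAN7, a mannanase, was called higher as well, but that call was lost without seed coat replicate 2 (edgeR adjusted p = 0.0607, against 0.0142 with it) and with total-read scaling. Genes of the young endosperm were close to silent. Of 10 listed, AGL62 alone could be tested and did not pass (edgeR adjusted p = 0.997), and the other 9 had 0 to 10 reads in the 3 seed coat libraries together and 0 in the embryo libraries.

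Markers of the maternal coat differed among pathways. Of 19 flavonoid and tannin genes listed, 13 could be tested: 10 were higher, beside 24.4% of all genes tested, none was lower and 3 did not pass (median 2.3). BAN, LDOX, TT3, TT10 and TT19 had 0 to 3 reads in all embryo libraries, so for these 5 inclusion in the test and direction are tied. BAN, the anthocyanidin reductase that makes the building blocks of tannin, had 8.86, 9.65 and 8.79 CPM in seed coat and 0 reads in embryo, at least 57.6-fold higher against a floor of 3 reads per library (edgeR adjusted p = 2.42e-08). LDOX, one step earlier, had 7.13, 8.60 and 8.16 CPM in seed coat and 0 reads in embryo, at least 50.4-fold higher (edgeR adjusted p = 7.10e-07). TT4, the chalcone synthase that opens the pathway, had 20.1, 24.2 and 18.4 CPM in seed coat and 0.240, 0.323 and 0.169 CPM in embryo (log2 fold change 6.37 ± 0.33, edgeR adjusted p = 1.50e-08). These enzymes stand at the start and near the end of the route to tannin, and each was higher in every seed coat library. TT7, a flavonoid hydroxylase, had 11.3, 12 and 7.43 CPM in seed coat and 2.69, 1.77 and 1.75 CPM in embryo (log2 fold change 2.3 ± 0.22, edgeR adjusted p = 4.87e-06). TT10, the laccase-like enzyme that browns the coat, had 0.933, 0.830 and 1.05 CPM in seed coat and 0 reads in embryo, at least 5.92-fold higher (edgeR adjusted p = 0.000165). The factors that control the pathway, apart from TTG1, were near 0. TT2, TT16 and TT1 had 2, 4 and 9 reads in the 3 seed coat libraries and 0 in embryo, and TT8 had 17 and 0. The transporter TT12 had 2 reads in seed coat and 1 in embryo, and FLS1, an enzyme of a side branch, had 3 and 12. The 3 members that did not pass, TT9, TT15 and TTG1, lay within 0.11 of 0 on the log2 scale. AHA10, a proton pump, was called (edgeR adjusted p = 0.0381) but lost the call without any of 5 libraries, with adjusted p up to 0.227 (edgeR), and did not pass when scaled to total reads (edgeR adjusted p = 0.169).

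Mucilage genes showed no common direction, with 4 of 16 higher, 3 lower and 9 not passing (median 0.00), beside 24.4% higher and 22.2% lower over all genes tested. KNAT7, one of the 4, had 18 reads in seed coat and 0 in embryo, so for it inclusion in the test and direction are tied. CSLA2, a glucomannan synthase, had 79.2, 77.2 and 72.5 CPM in seed coat and 1.49, 1.24 and 1.69 CPM in embryo (log2 fold change 5.69 ± 0.16, edgeR adjusted p = 8.15e-11). NARS1, a NAC factor of the integuments, had 2.87, 2.187 and 2.72 CPM in seed coat and 0.432, 0.323 and 0.451 CPM in embryo (log2 fold change 2.66 ± 0.26, edgeR adjusted p = 5.96e-06). The tissues did not overlap for either gene. GL2, an epidermal factor needed for mucilage, was lower, with 0.666, 0.452 and 0.733 CPM in seed coat and 1.82, 2.26 and 2.53 CPM in embryo (log2 fold change -1.83 ± 0.30, edgeR adjusted p = 0.000362). PMEI6, an inhibitor of pectin methylesterases, was lower as well, with 1.13, 1.13 and 1.05 CPM in seed coat and 2.73, 3.06 and 3.04 CPM in embryo (log2 fold change -1.40 ± 0.19, edgeR adjusted p = 0.000102). MUM4, the rhamnose synthase of mucilage, had 7.59, 8.14 and 6.59 CPM in seed coat and 5.71, 6.94 and 7.49 CPM in embryo, and its libraries overlapped (edgeR adjusted p = 0.549). MUM2, which trims mucilage, had 1 read in seed coat and 40 in embryo, and PRX36 did not pass (edgeR adjusted p = 0.0959). Leaving out 1 library left 3 or 4 higher and 3 or 4 lower, and scaled to total reads 4 rose and 8 fell.

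Of 12 cutin, suberin and wax genes tested, 4 were higher and 2 lower (median 0.49). Over all genes tested, 24.4% were higher and 22.2% lower. FAR5, a fatty acyl reductase of suberin, had 5.06, 1.06 and 3.66 CPM in seed coat and 3 reads in all embryo libraries, a ratio of 63.0 (95% counting interval 21.1 to 309.7) (edgeR adjusted p = 0.000467). ABCG2, a half-transporter needed for suberin, had 0.933, 1.06 and 0.733 CPM in seed coat and 2 reads in all embryo libraries, a ratio of 26.5 (95% counting interval 6.80 to 227) (edgeR adjusted p = 9.19e-05). Both were at low levels with few embryo reads, and for FAR5 at least, inclusion in the test and direction are tied. ABCG11, which exports cutin and wax lipids, was lower, with 8.53, 8.60 and 7.96 CPM in seed coat and 17.55, 11.4 and 14.6 CPM in embryo (log2 fold change -0.80 ± 0.19, edgeR adjusted p = 0.00422). ABCG6 (higher) and CER6 (lower) were each lost when single libraries were left out, which left 3 or 4 members higher and 1 or 2 lower. The sixth call, LTPG1 (higher), is also on the list of lipid transfer proteins. Scaled to total reads 2 rose and 5 fell, without ABCG6 and LTPG1 among the 2. In the fit with the replicate block, 6 cutin, suberin and wax genes rose and 2 fell. The suberin genes GPAT5, CYP86B1, ASFT and MYB107 had 1 to 7 reads in seed coat and 0 in embryo. All 3 lipid transfer proteins tested of 10 rose, LTP6 having been tested through its seed coat reads alone. LTP2 was at 150.5, 172 and 115 CPM in seed coat and 55.0, 58.6 and 57.5 CPM in embryo (log2 fold change 1.35 ± 0.14, edgeR adjusted p = 1.11e-05). LTP6 had 4.66, 5.50 and 5.65 CPM in seed coat and 0 reads in embryo, at least 33.4-fold higher (edgeR adjusted p = 1.01e-06). LTPG1 did not pass when scaled to total reads (log2 fold change 0.36).

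**Figure D2:**
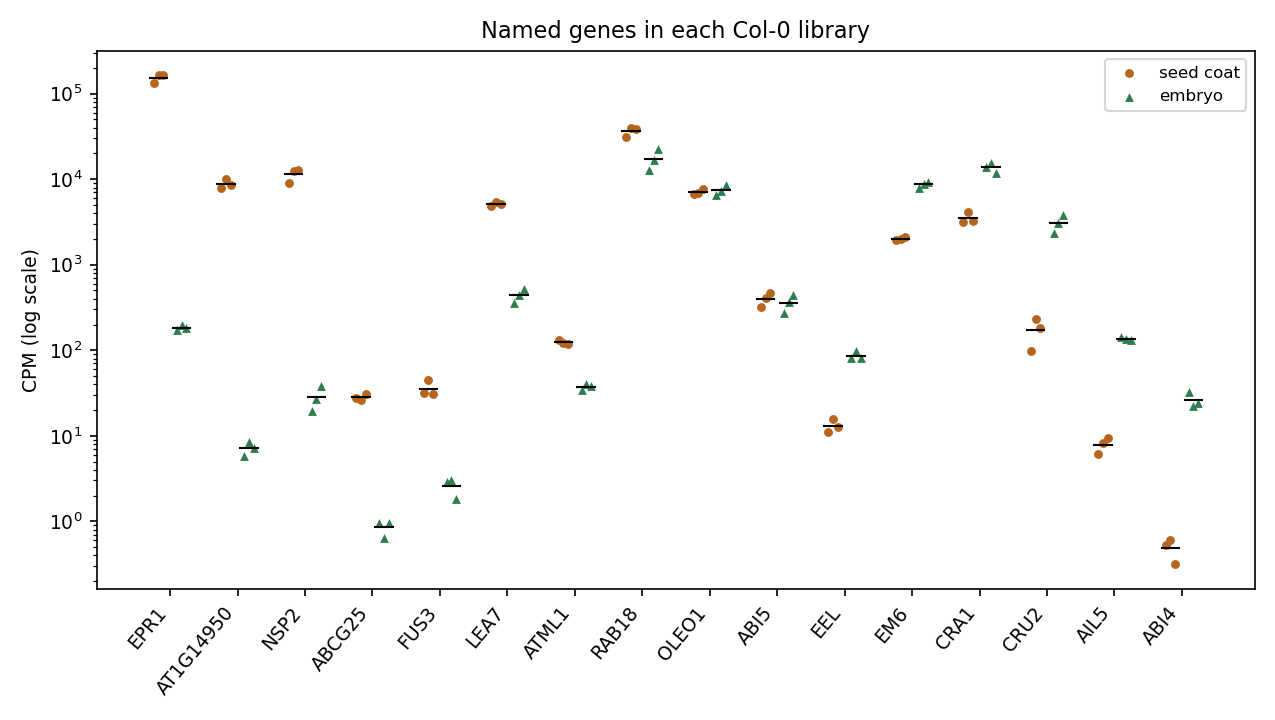
CPM on a log scale of 16 genes in each Col-0 library, seed coat as circles and embryo as triangles, 1 point per library and a line at the mean of 3. EPR1, AT1G14950 and NSP2 lie far higher in every seed coat library, OLEO1 and ABI5 overlap between tissues, and CRU2, AIL5 and ABI4 lie lower in every seed coat library.

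Genes that pattern the embryo were concentrated in the samples labelled embryo. Of 32 such genes, 21 could be tested and all passed, 18 of them lower in seed coat (median -3.76, or -3.48 with the 2 members at 0 seed coat reads set at their bound). STM, PLT1, PLT2, CNA and HB8 had 0 to 3 seed coat reads, so for these 5 inclusion in the test and direction are tied. BBM, an AP2 factor of the embryonic root, had 0, 0.377 and 0.209 CPM in seed coat and 9.06, 7.80 and 8.05 CPM in embryo (log2 fold change -5.42 ± 0.36, edgeR adjusted p = 1.49e-07). KAN1, which sets the lower side of leaves, had 0.200, 0.226 and 0.733 CPM in seed coat and 14, 11.1 and 11.3 CPM in embryo (log2 fold change -5.09 ± 0.41, edgeR adjusted p = 1.08e-06). YAB3, a factor of the same side, had 0.333, 0.754 and 0.837 CPM in seed coat and 17.1, 18.6 and 17 CPM in embryo (log2 fold change -4.82 ± 0.33, edgeR adjusted p = 2.07e-07). All 3 were close to 0 in every seed coat library. CNA, a class III homeodomain factor, had 0 reads in seed coat and 3.07, 2.80 and 2.37 CPM in embryo, at least 11.1-fold lower in seed coat (edgeR adjusted p = 1.80e-05). PLT2, a root stem cell factor, was at least 6.78-fold lower by the same floor (edgeR adjusted p = 6.58e-05). STM, the shoot meristem factor, had 3 reads in seed coat and 59 in embryo. SHR and CUC2, listed as markers, had too few reads to be tested, with 0 and 1 in seed coat and 1 and 7 in embryo. Leaving out 1 library left 16 to 18 members lower: REV lost its call without any of 4 libraries, and BDL without seed coat replicate 1 (edgeR adjusted p = 0.057).

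The 3 members that rose are factors of the outer cell layer or of the early embryo. ATML1 (AT4G21750), a homeodomain factor of the epidermis, had 131, 121 and 119.6 CPM in seed coat and 34.5, 40.5 and 37.8 CPM in embryo (log2 fold change 1.72 ± 0.09, edgeR adjusted p = 1.94e-08), and its relative PDF2 (AT4G04890) had 99.7, 108 and 89.8 CPM in seed coat and 41.4, 43.7 and 34.3 CPM in embryo (log2 fold change 1.32 ± 0.13, edgeR adjusted p = 5.06e-06). WOX2, a homeobox factor of the apical cell lineage in the young embryo, had 32.9, 24.1 and 31.3 CPM in seed coat and 13, 16.4 and 20.7 CPM in embryo (log2 fold change 0.82 ± 0.16, edgeR adjusted p = 0.00136), but did not pass when scaled to total reads (log2 fold change 0.36). PDF1, an epidermal cell wall protein gene whose promoter carries the L1 box bound by ATML1, went the other way at 0, 0.377 and 0 CPM in seed coat and 3.36, 3.98 and 5.12 CPM in embryo (log2 fold change -4.89 ± 0.69, edgeR adjusted p = 0.000116).

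How far transcripts of one tissue were found in the other was read from the most biased of the abundant genes. Among 91 genes with at least 1000 CPM in seed coat, the lowest relative level in embryo was that of AT1G14940 at 0.0405%, 0.0593% and 0.0576% of the same-numbered seed coat library, and EPR1 stood at 0.127%, 0.12% and 0.109%. Among 1082 genes with at least 100 CPM in embryo, the lowest relative level in seed coat was that of AT5G15780, a pollen allergen-like protein, at 1.75%, 3.26% and 2.21% of the same-numbered embryo library. AT1G62510, of the lipid transfer and albumin family, stood at 1.85%, 3.06% and 2.51%, AN3, a co-activator of leaf growth, at 1.67%, 3.82% and 3.51%, and the storage protein gene CRU2 at 4.07%, 7.59% and 4.83%. For these 4 genes seed coat replicate 2 was the highest. The part of embryo RNA in the seed coat samples was not tested. Without seed coat replicate 2 the log2 fold change of AT5G15780 was -5.70 in place of -5.38, and that of CRU2 was -4.46 in place of -4.17.

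Storage protein genes were lower in the seed coat in the main, and differed widely among themselves. Of 12 members, all tested, 6 fell, 2 rose and 4 did not pass (median -1.02), and they took 2.03% to 2.61% of reads in the seed coat libraries and 10.2% to 11.1% in the embryo libraries. The cruciferins, the 12S globulins, fell. CRU2 had 97.0, 234 and 184 CPM in seed coat and 2380, 3082 and 3811 CPM in embryo (log2 fold change -4.17 ± 0.30, edgeR adjusted p = 3.80e-07). CRU3 had 844, 1497 and 932 CPM in seed coat and 5418, 6654 and 5004 CPM in embryo (log2 fold change -2.38 ± 0.21, edgeR adjusted p = 2.48e-06), and CRA1 had 3195, 4157 and 3288 CPM in seed coat and 14040, 15460 and 11900 CPM in embryo (log2 fold change -1.96 ± 0.18, edgeR adjusted p = 3.70e-06). Each cruciferin library of seed coat was below each of embryo, and among seed coats replicate 2 was the highest. The vicilin-like PAP85 had 6188, 7248 and 7388 CPM in seed coat and 25960, 26940 and 23570 CPM in embryo (log2 fold change -1.88 ± 0.17, edgeR adjusted p = 3.89e-06). Among the 2S albumins, SESA5 fell, with 6916, 9707 and 7306 CPM in seed coat and 28090, 26940 and 29460 CPM in embryo (log2 fold change -1.82 ± 0.17, edgeR adjusted p = 3.76e-06). SESA2 rose instead, with 186, 346 and 271 CPM in seed coat and 66.0, 119.9 and 104 CPM in embryo (log2 fold change 1.47 ± 0.23, edgeR adjusted p = 0.000255). SESA1, the other member called higher, had 53.6, 131 and 126 CPM in seed coat and 54.0, 75.2 and 54.1 CPM in embryo. Its libraries overlapped, and the call was lost when any of 4 libraries was left out (edgeR adjusted p up to 0.1202) and with total-read scaling. SESA3 and SESA4, which lie next to SESA1 and SESA2 on chromosome 4, did not pass (edgeR adjusted p = 0.281 and 0.483); with the replicate number as a block, SESA3 was lower (edgeR adjusted p = 0.0006). SESA1 to SESA4 are closely related neighbours, and reads may be split or lost among them.

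Oil body protein genes differed by less than 2-fold. Of 10 tested, 5 fell and 1 rose (median -0.53). OLEO1, the most abundant oleosin transcript in both tissues, had 6651, 6952 and 7738 CPM in seed coat and 6517, 7302 and 8534 CPM in embryo, overlapping (edgeR adjusted p = 0.762). OLEO5 fell, with 1198, 1158 and 1237 CPM in seed coat and 1789, 2001 and 2126 CPM in embryo (log2 fold change -0.72 ± 0.13, edgeR adjusted p = 0.000889). The caleosin CLO1 fell as well, with 194, 236 and 295 CPM in seed coat and 378, 399 and 544 CPM in embryo (log2 fold change -0.86 ± 0.17, edgeR adjusted p = 0.00115). OBAP1A, an oil body associated protein, rose, with 3029, 3168 and 3437 CPM in seed coat and 1502, 1883 and 2529 CPM in embryo (log2 fold change 0.70 ± 0.18, edgeR adjusted p = 0.00664), but did not pass when scaled to total reads (log2 fold change 0.24), under which no member rose, 7 fell and OLEO1 was lower (log2 fold change -0.54). With the replicate block 3 rose and 6 fell, and OLEO4, at 1219, 1639 and 2083 CPM in seed coat and 1792, 2368 and 3195 CPM in embryo, was among those lower (edgeR adjusted p = 1.55e-05, against 0.0518 without it). Any 1 library left out gave between 1 and 3 members higher.

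LEA proteins and dehydrins, which protect cells as they dry, split between the tissues. Of 37 tested of 39, 16 rose, 7 fell and 14 did not pass (median 0.40), beside 24.4% higher and 22.2% lower over all genes tested. COR47 and ERD10, both called higher, had 15 and 45 reads in seed coat and 1 and 0 in embryo. For these dehydrins inclusion in the test and direction are tied, and COR47 lost its call without seed coat replicate 1 (edgeR adjusted p = 0.0928). Their joint share of reads overlapped, at 7.70% to 8.80% of reads in the seed coat libraries and 7.42% to 9.82% in the embryo libraries. LEA7 (AT1G52690), whose upstream sequence held 5 matches to the ABRE core, had 4808, 5458 and 5158 CPM in seed coat and 358, 447 and 515 CPM in embryo (log2 fold change 3.55 ± 0.17, edgeR adjusted p = 7.97e-09). RAB18, the highest member by TPM in both tissues, had 31070, 40140 and 38350 CPM in seed coat and 12740, 16640 and 22850 CPM in embryo (log2 fold change 1.07 ± 0.23, edgeR adjusted p = 0.00247). Neither LEA7 nor RAB18 overlapped between tissues. LEA14 had 799, 883 and 838 CPM in seed coat and 305, 323 and 348 CPM in embryo (log2 fold change 1.37 ± 0.09, edgeR adjusted p = 1.95e-07). EM6 and EM1, classic late embryogenesis genes, went the other way. EM6 had 1925, 2007 and 2113 CPM in seed coat and 7942, 8881 and 9283 CPM in embryo (log2 fold change -2.11 ± 0.17, edgeR adjusted p = 1.20e-06), and EM1 had 112, 281 and 211 CPM in seed coat and 1174, 1760 and 2291 CPM in embryo (log2 fold change -3.11 ± 0.38, edgeR adjusted p = 3.45e-05). M17 had 7777, 9136 and 6690 CPM in seed coat and 7652, 8018 and 5600 CPM in embryo, overlapping (edgeR adjusted p = 0.512). The cold-induced dehydrin ERD10 had 1.53, 1.06 and 0.837 CPM in seed coat and 0 reads in embryo, at least 7.22-fold higher (edgeR adjusted p = 5.47e-06). The split turned with the scaling: to total reads, 11 rose and 14 fell, with LEA7, RAB18, LEA14 and ERD10 still higher and LEA4-2, LEA4-5, AT3G15670, AT4G21020 and AT2G23120 no longer called. In the fit with the replicate block 21 rose and 10 fell.

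**Figure D3:**
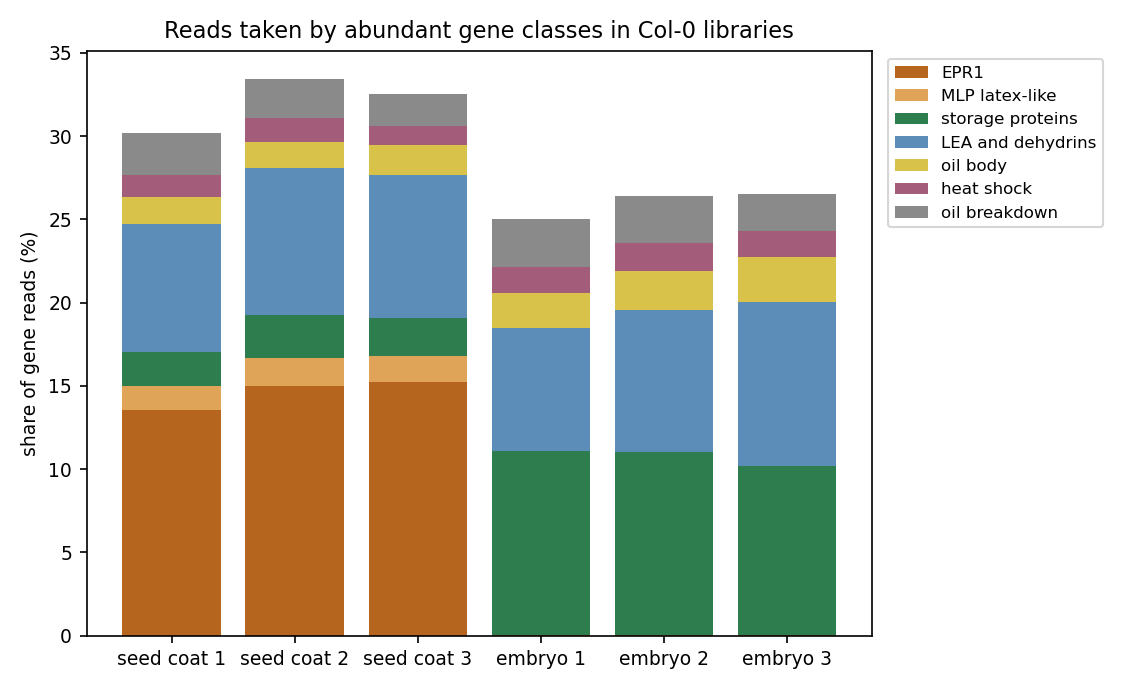
Share of gene reads (percent, stacked) taken by EPR1 and by gene lists in each Col-0 library, seed coat on the left and embryo on the right, each gene counted once. EPR1 takes 13.5% to 15.3% of the seed coat libraries and under 0.03% of the embryo libraries, while the storage proteins take 2.03% to 2.61% in seed coat and 10.2% to 11.1% in embryo.

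Among genes of abscisic acid, the hormone that holds seeds dormant, the largest rises were those of the transporters ABCG31 and ABCG25. Of 15 tested genes for synthesis, breakdown and transport, 6 rose and 2 fell, beside 24.4% higher and 22.2% lower over all genes tested. Beside ABCG25, ABCG31 and the NCED6 described above, NCED2, one of the cleavage enzymes at the committed step, rose with 4.46, 4.15 and 3.25 CPM in seed coat and 0.144, 0.376 and 0.957 CPM in embryo (log2 fold change 3.03 ± 0.48, edgeR adjusted p = 0.000282). CYP707A2, the main abscisic acid hydroxylase of imbibed seeds, had 123, 59.5 and 121 CPM in seed coat and 61.6, 28.9 and 44.7 CPM in embryo (log2 fold change 1.17 ± 0.28, edgeR adjusted p = 0.00444), and its lowest seed coat library lay below its highest embryo library; it did not pass when scaled to total reads (edgeR adjusted p = 0.0564). The same-numbered libraries of both tissues moved together for this gene, with replicate 2 lowest in each. ABCG30, an importer, fell with 0.600, 0.980 and 0.837 CPM in seed coat and 3.02, 2.04 and 1.69 CPM in embryo (log2 fold change -1.49 ± 0.32, edgeR adjusted p = 0.00249). NCED9 and ABA3, genes of synthesis, did not pass. NCED9 had 8.02 ± 1.02 CPM in seed coat and 7.32 ± 3.00 CPM in embryo (SD, n = 3, edgeR adjusted p = 0.734), and ABA3 had 31.6 ± 1.11 CPM in seed coat and 33.7 ± 1.89 CPM in embryo (edgeR adjusted p = 0.443). CYP707A3, at 40.1, 17.57 and 35.3 CPM in seed coat and 119.5, 29.2 and 58.4 CPM in embryo, was lower with the replicate block (edgeR adjusted p = 6.08e-06), but not without it (edgeR adjusted p = 0.11). Leaving out 1 library left 5 to 7 higher and 1 or 2 lower, with NCED5 (higher) and NCED3 (lower) each losing the call without any of 4 libraries. The call of NCED3 rests on few reads, with 0 in seed coat and 18 in embryo. NCED5 did not pass when scaled to total reads (edgeR adjusted p = 0.181).

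In abscisic acid signalling 14 of 32 genes rose, 4 fell and 14 did not pass (median 0.30). The shares over all genes tested were 24.4% higher and 22.2% lower. PYL3, called higher, rests on few reads, with 20 in seed coat and 2 in embryo. Receptors moved in both directions. PYL11 had 12.5, 17 and 20.7 CPM in seed coat and 2.54, 4.46 and 6.31 CPM in embryo (log2 fold change 1.92 ± 0.29, edgeR adjusted p = 0.000214). PYL8 had 16.1, 16.1 and 11 CPM in seed coat and 5.95, 7.31 and 5.24 CPM in embryo (log2 fold change 1.23 ± 0.17, edgeR adjusted p = 0.000116) and PYL13 had 3.27, 4.37 and 5.23 CPM in seed coat and 1.44, 1.61 and 2.48 CPM in embryo (log2 fold change 1.21 ± 0.23, edgeR adjusted p = 0.00112), and all were higher in every seed coat library. One receptor ran the other way. PYL2 was lower, with 7.59, 6.33 and 9.21 CPM in seed coat and 15.6, 13.4 and 16.4 CPM in embryo (log2 fold change -0.98 ± 0.16, edgeR adjusted p = 0.000407). The phosphatases that hold the pathway off included 6 that rose, among them AHG3 at 82.0, 77.4 and 122 CPM in seed coat and 41.1, 38.9 and 65.5 CPM in embryo (log2 fold change 0.95 ± 0.20, edgeR adjusted p = 0.00195). HAI3 was at 35.8, 41.2 and 46.1 CPM in seed coat and 18.3, 21.9 and 24.8 CPM in embryo (log2 fold change 0.92 ± 0.16, edgeR adjusted p = 0.000665). Both phosphatases were higher in every seed coat library. Of the SnRK2 kinases, SNRK2.6 fell with 12.7, 7.01 and 14.2 CPM in seed coat and 24.8, 15 and 25.8 CPM in embryo (log2 fold change -0.96 ± 0.24, edgeR adjusted p = 0.00648) and SNRK2.2 did not pass (edgeR adjusted p = 0.281). Among the bZIP factors at the end of the pathway, EEL fell with 11, 15.68 and 12.8 CPM in seed coat and 80.6, 97.8 and 80.3 CPM in embryo (log2 fold change -2.71 ± 0.14, edgeR adjusted p = 1.47e-08). ABI5 had 322, 412 and 468 CPM in seed coat and 272, 366 and 437 CPM in embryo, overlapping (edgeR adjusted p = 0.461). ABF2 rose with 5.46, 5.81 and 3.98 CPM in seed coat and 2.59, 2.15 and 2.93 CPM in embryo (log2 fold change 1.006 ± 0.18, edgeR adjusted p = 0.000653). Scaled to total reads, 7 rose and 11 fell, with PYL11, PYL8, PYL13, AHG3, HAI3 and ABF2 among the 7. The receptors PYL5, PYL7 and PYL9 and the phosphatases ABI2, HAB1, HAB2 and AHG1 lost their calls. With any 1 library left out, 12 to 15 were higher and 3 or 4 lower. The replicate block gave 16 higher and 6 lower.

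Gibberellin genes, which act against dormancy, gave 4 higher, 5 lower and 7 not passing of 16 tested. The receptor GID1C rose with 26.9, 22.2 and 32.2 CPM in seed coat and 11.1, 13.8 and 13.3 CPM in embryo (log2 fold change 1.09 ± 0.14, edgeR adjusted p = 5.07e-05). The inactivating enzyme GA2OX6 rose with 10.7, 3.54 and 10.3 CPM in seed coat and 2.64, 1.08 and 1.41 CPM in embryo (log2 fold change 2.23 ± 0.43, edgeR adjusted p = 0.00125). The growth-restraining DELLA factors differed among themselves. RGL2 rose with 21.5, 30.3 and 17 CPM in seed coat and 9.35, 15.2 and 9.91 CPM in embryo (log2 fold change 1.00 ± 0.24, edgeR adjusted p = 0.0047). RGL3 fell with 8.93, 11.2 and 9.32 CPM in seed coat and 18.0, 26.9 and 25.5 CPM in embryo (log2 fold change -1.26 ± 0.24, edgeR adjusted p = 0.00105). GAI had 33.3, 32.6 and 29.1 CPM in seed coat and 32.5, 32.2 and 29.1 CPM in embryo, overlapping (edgeR adjusted p = 0.929). RGL2 did not pass when scaled to total reads (edgeR adjusted p = 0.052), and neither did the receptor GID1A. The synthesis gene GA20OX3 was lower, with 1.93, 3.47 and 1.78 CPM in seed coat and 5.90, 11.6 and 5.91 CPM in embryo (log2 fold change -1.69 ± 0.36, edgeR adjusted p = 0.00225), and the 4 GA3OX genes had 0 or 1 read in each tissue. Scaled to total reads, 2 rose and 10 fell. The replicate block gave 4 higher and 6 lower. With any 1 library left out, 3 or 4 were higher and 4 to 6 lower.

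Of 30 regulators of maturation and dormancy, 7 rose, 10 fell and 13 did not pass (median -0.07). FUS3, a B3 factor of seed maturation that binds the RY motif, had 31.2, 44.6 and 30.5 CPM in seed coat and 2.88, 3.06 and 1.80 CPM in embryo. It was the largest rise of the list, with no overlap (log2 fold change 3.77 ± 0.24, edgeR adjusted p = 1.25e-07). Its relative ABI3 had 111, 132 and 119.6 CPM in seed coat and 135, 156 and 127 CPM in embryo, overlapping (edgeR adjusted p = 0.174; with the replicate block ABI3 was lower, edgeR adjusted p = 0.0295). ABI4, an AP2 factor of abscisic acid and sugar responses, had 0.533, 0.603 and 0.314 CPM in seed coat and 32.5, 22 and 24.5 CPM in embryo (log2 fold change -5.70 ± 0.25, edgeR adjusted p = 4.13e-09). AIL5, an AP2 factor of the embryo, had 6.06, 8.22 and 9.42 CPM in seed coat and 145, 134 and 133 CPM in embryo (log2 fold change -4.13 ± 0.17, edgeR adjusted p = 2.02e-09). Both AP2 factors were higher in every embryo library. TCP14, known to act in embryo growth during germination, had 1.20, 1.28 and 1.15 CPM in seed coat and 20.1, 17.9 and 20.7 CPM in embryo (log2 fold change -4.0 ± 0.15, edgeR adjusted p = 7.17e-10). DOGL3, of the family of the dormancy gene DOG1, had 0.400, 0.452 and 0.209 CPM in seed coat and 4.94, 6.02 and 4.96 CPM in embryo (log2 fold change -3.82 ± 0.31, edgeR adjusted p = 1.27e-06). DOG1 itself had 16.2, 26.5 and 35.1 CPM in seed coat and 15.1, 22.1 and 27.0 CPM in embryo, overlapping (edgeR adjusted p = 0.39; with the replicate block DOG1 was higher, edgeR adjusted p = 0.0222). DOG1 and ABI3, at the centre of dormancy and maturation, thus overlapped between the tissues. DAG1, a DOF factor of germination, had 0 reads in seed coat and 1.58, 1.34 and 0.619 CPM in embryo, at least 4.79-fold lower (edgeR adjusted p = 0.000459). FLC, the flowering repressor, had 30.9, 37.1 and 32.6 CPM in seed coat and 69.1, 67.2 and 68.5 CPM in embryo (log2 fold change -1.02 ± 0.09, edgeR adjusted p = 2.17e-06). In the other direction, RVE2, a MYB-like factor of dormancy, rose with 82.5, 91.2 and 103 CPM in seed coat and 28.7, 44.7 and 54.3 CPM in embryo (log2 fold change 1.11 ± 0.18, edgeR adjusted p = 0.000299). MFT, a phosphatidylethanolamine-binding protein of germination control, rose too, with 53.0, 41.7 and 39.2 CPM in seed coat and 31.8, 24.5 and 28.6 CPM in embryo (log2 fold change 0.66 ± 0.13, edgeR adjusted p = 0.00125), but did not pass when scaled to total reads. LEC1 and LEC2 had 5 or fewer reads in all. Scaled to total reads 2 members rose and 16 fell, and RDO5, bZIP53, bZIP25 and bZIP10 lost their calls as well. Leaving out 1 library left 5 to 7 higher and 7 to 11 lower.

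Oil breakdown genes were active in both tissues. Of 21 tested for oil breakdown, the glyoxylate cycle and gluconeogenesis, 7 rose, 2 fell and 12 did not pass (median 0.09), and they took 1.97% to 2.56% of reads in the seed coat libraries and 2.23% to 2.91% in the embryo libraries. KAT2, the main thiolase of oil breakdown, had 1660, 1609 and 1529 CPM in seed coat and 815, 859.7 and 767 CPM in embryo (log2 fold change 0.97 ± 0.10, edgeR adjusted p = 6.43e-06). KAT5 had 3.20, 4.45 and 5.23 CPM in seed coat and 0.624, 0.484 and 0.563 CPM in embryo (log2 fold change 2.91 ± 0.27, edgeR adjusted p = 4.01e-06). PPDK, an enzyme of gluconeogenesis, fell with 190.2, 244 and 176 CPM in seed coat and 315, 386 and 328 CPM in embryo (log2 fold change -0.75 ± 0.17, edgeR adjusted p = 0.00296). No seed coat library of KAT2, KAT5 or PPDK overlapped with embryo. ICL, the isocitrate lyase that marks the glyoxylate cycle, had 16080, 16100 and 12280 CPM in seed coat and 12170, 12280 and 9019 CPM in embryo, overlapping (edgeR adjusted p = 0.104; with the replicate block ICL was higher, edgeR adjusted p = 0.000993). MLS, its partner, had 2701, 2990 and 2514 CPM in seed coat and 3065, 3341 and 3023 CPM in embryo (edgeR adjusted p = 0.233; with the replicate block MLS was lower, edgeR adjusted p = 0.0309). When scaled to total reads, KAT2 and KAT5 alone were higher and 14 members were lower, among them LACS7, which was higher by 0.24 on the log2 scale in the TMM fit. SDP1, ACX2, ACX4 and AIM1, also higher in that fit, did not pass. In oil synthesis 5 of 18 genes rose and 4 fell. FAD3, the desaturase that makes linolenic acid, had 5.26, 7.01 and 3.77 CPM in seed coat and 1.58, 1.24 and 1.014 CPM in embryo (log2 fold change 2.06 ± 0.25, edgeR adjusted p = 3.31e-05). PDAT1, an acyltransferase of oil assembly, had 14.1, 12.9 and 9.73 CPM in seed coat and 19.7, 20.2 and 17.5 CPM in embryo (log2 fold change -0.64 ± 0.14, edgeR adjusted p = 0.00229). DGAT1, DGAT3 and LPAT2 were higher by 0.60 to 0.66 on the log2 scale and did not pass when scaled to total reads (log2 fold changes 0.19, 0.14 and 0.13).

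Photosynthesis transcripts were low in both tissues. None of the 16 tested rose, 7 fell and 9 did not pass (median -0.72). RBCS1A, a small subunit of Rubisco, had 3.20, 2.56 and 2.62 CPM in seed coat and 17.8, 20.5 and 18.4 CPM in embryo (log2 fold change -2.75 ± 0.15, edgeR adjusted p = 2.71e-08). RCA, the Rubisco activase, had 3.80, 3.85 and 3.45 CPM in seed coat and 8.25, 9.14 and 6.03 CPM in embryo (log2 fold change -1.07 ± 0.15, edgeR adjusted p = 0.000123). LHCB4.1 had 24.4, 30.5 and 26.3 CPM in seed coat and 25.5, 35.9 and 29.3 CPM in embryo, overlapping (edgeR adjusted p = 0.398). With the replicate block, 1 member rose (LHCB5) and 9 fell.

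Water channels divided by subgroup. Of 12 aquaporins tested, 3 rose and 6 fell. The tonoplast channel of seeds TIP3;2 had 2673, 2990 and 2634 CPM in seed coat and 964, 1290 and 1319 CPM in embryo (log2 fold change 1.22 ± 0.16, edgeR adjusted p = 7.62e-05). NIP1;2, a channel of the NIP group, had 158, 196 and 144 CPM in seed coat and 13.4, 20.5 and 17.1 CPM in embryo (log2 fold change 3.29 ± 0.17, edgeR adjusted p = 1.35e-08). All 6 that fell belong to the PIP group, named for the plasma membrane. PIP2;7 had 0.0666, 0.905 and 0.209 CPM in seed coat and 34.0, 19.6 and 20.7 CPM in embryo (log2 fold change -5.93 ± 0.45, edgeR adjusted p = 5.73e-07). PIP1;2 had 129, 122 and 116 CPM in seed coat and 153, 162 and 168 CPM in embryo (log2 fold change -0.39 ± 0.10, edgeR adjusted p = 0.00659). PIP2;7 was close to absent from seed coat, PIP1;2 present in both. TIP3;1 was higher by 0.57 on the log2 scale, but lost its call without embryo replicate 1 or seed coat replicate 3 (edgeR adjusted p up to 0.0549) and with total-read scaling.

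Among raffinose family genes, which make and break the protective sugars of dry seeds, GOLS2, a galactinol synthase, had 296, 299.5 and 450.3 CPM in seed coat and 94.9, 119 and 175 CPM in embryo (log2 fold change 1.43 ± 0.22, edgeR adjusted p = 0.000257). AGAL1, an alpha-galactosidase, went the other way with 0.400, 0.980 and 0.314 CPM in seed coat and 21.5, 22.6 and 17.5 CPM in embryo (log2 fold change -5.13 ± 0.30, edgeR adjusted p = 4.95e-08). In total 3 of 6 rose and 1 fell. STS lost its call without any of 4 libraries (edgeR adjusted p up to 0.131), and STS and GOLS1 did when scaled to total reads (log2 fold changes -0.11 and 0.04). SIP2 passed with the replicate block (edgeR adjusted p = 6.89e-06) but not without it (edgeR adjusted p = 0.0693). Of the 7 sugar and amino acid transporters tested, 3 rose and 2 fell. SWEET15, a sucrose exporter known to feed the embryo, had 1.27, 2.26 and 2.51 CPM in seed coat and 0.527, 0.538 and 0.281 CPM in embryo (log2 fold change 2.11 ± 0.41, edgeR adjusted p = 0.00117). AAP1, an importer of amino acids, had 57.3, 51.8 and 45.6 CPM in seed coat and 105, 109.9 and 96.8 CPM in embryo (log2 fold change -1.009 ± 0.11, edgeR adjusted p = 1.81e-05).

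Cell wall loosening genes were mixed, with 5 of 15 higher, EPR1 among them, and 3 lower. MAN6, a mannanase of the endosperm, had 6.06, 7.99 and 6.18 CPM in seed coat and 0.576, 0.968 and 0.676 CPM in embryo (log2 fold change 3.18 ± 0.43, edgeR adjusted p = 9.22e-05). EXPA8, an expansin, had 4.86, 2.41 and 1.15 CPM in seed coat and 0.288, 0.430 and 0.563 CPM in embryo (log2 fold change 2.75 ± 0.50, edgeR adjusted p = 0.000727). EXPA3 was lower, with 0.733, 0.226 and 0.209 CPM in seed coat and 2.25, 2.63 and 2.98 CPM in embryo (log2 fold change -2.64 ± 0.42, edgeR adjusted p = 0.000304). These 3 genes did not overlap between the tissues. EXPA2, the expansin known from germinating endosperm, had 20 reads in seed coat and 0 in embryo. TCH4, a touch-induced xyloglucan enzyme, varied within tissues, with 148, 59.6 and 115 CPM in seed coat and 121, 30.9 and 86.6 CPM in embryo (edgeR adjusted p = 0.735). It was higher in seed coat within each number, and with the replicate block it passed (edgeR adjusted p = 0.0466), one of 8 members that then rose. MAN1, a mannanase called higher, did not pass when scaled to total reads. Heat shock genes, measured as part of the seed's protective set, gave 3 higher and 3 lower of 14. HSP70 (AT3G12580) had 2554, 3070 and 2281 CPM in seed coat and 1130, 1402 and 1078 CPM in embryo (log2 fold change 1.13 ± 0.14, edgeR adjusted p = 4.44e-05). The small heat shock protein gene AT1G53540 had 430.5, 469 and 372 CPM in seed coat and 148, 171 and 179.6 CPM in embryo (log2 fold change 1.35 ± 0.11, edgeR adjusted p = 9.33e-07). HSP21, the small heat shock protein of plastids, fell with 2.40, 4.15 and 1.99 CPM in seed coat and 14.9, 18.0 and 11.3 CPM in embryo (log2 fold change -2.35 ± 0.35, edgeR adjusted p = 0.00017). The other 3 calls were each lost when single libraries were left out, which left 2 or 3 higher and 1 to 3 lower. HSP90.1, one of them, was also lost with total-read scaling. Of 7 DNA replication and cell cycle genes tested, CDKB2;1, a kinase of dividing cells, fell, with 0.200, 0.151 and 0.419 CPM in seed coat and 1.92, 2.1 and 1.75 CPM in embryo (log2 fold change -2.95 ± 0.41, edgeR adjusted p = 0.000116). CDKA;1 was higher by 0.47 on the log2 scale but lost its call without any of 3 libraries (edgeR adjusted p up to 0.0862) and with total-read scaling. The other 5 did not pass.

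**Figure D4:**
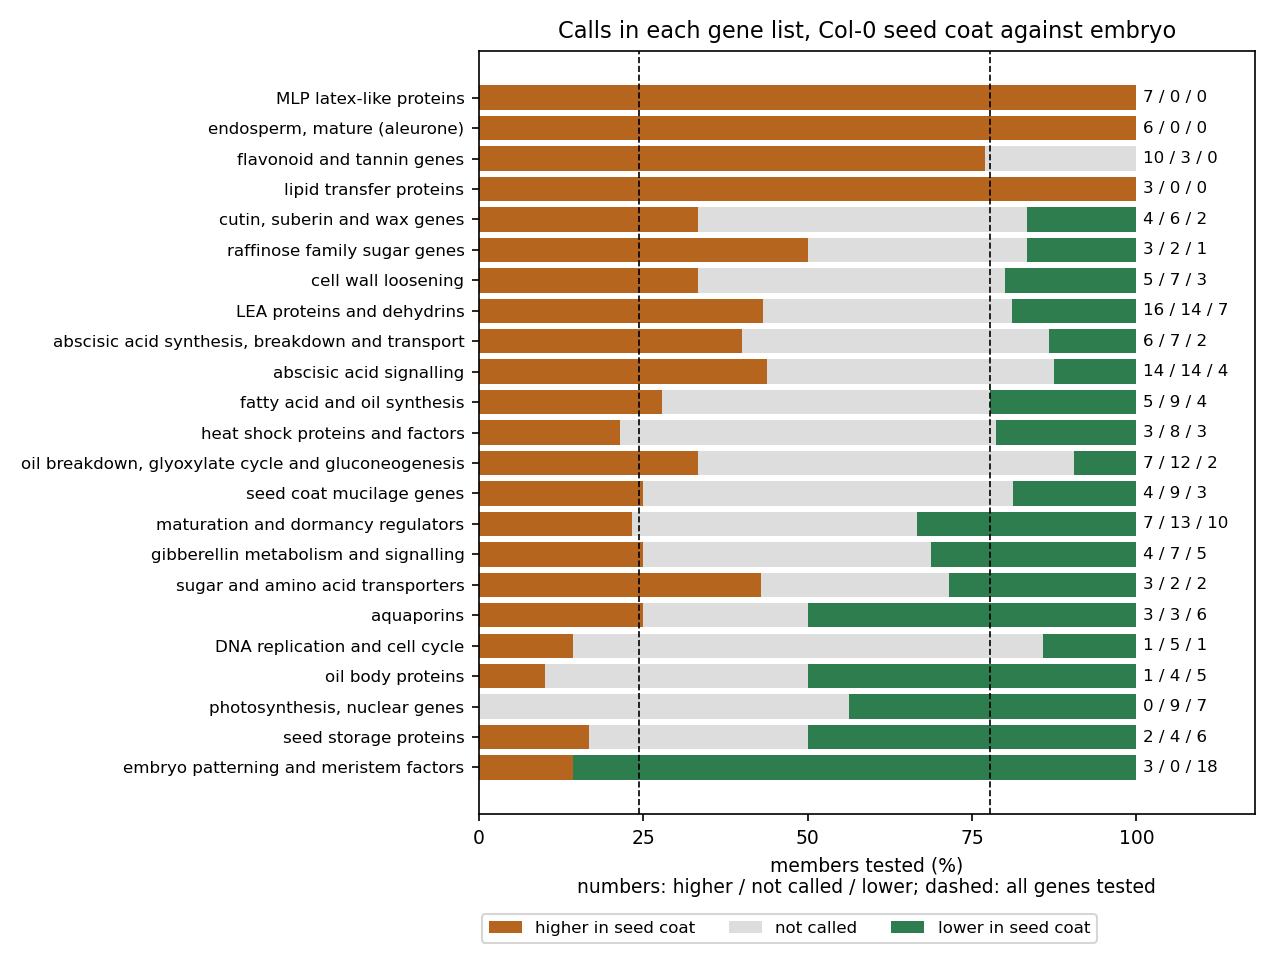
Share of tested members (percent) called higher in seed coat, not called or called lower in seed coat for 23 gene lists, ordered by median log2 fold change, with the 3 counts at the right. The dashed lines mark 24.4% higher and 22.2% lower over all genes; the MLP, mature endosperm and lipid transfer lists are higher throughout, and 18 of 21 embryo patterning genes are lower.

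Grouping all tested genes by the product names of the reference showed classes that leaned one way. Genes annotated as ribosomal proteins were seldom higher in seed coat: 20 of 308 rose (6.49%) and 127 fell (41.2%), beside 24.4% and 22.2% of all genes. Pentatricopeptide repeat proteins, which process RNA in plastids and mitochondria, gave 7 higher and 108 lower of 243, and histones 6 higher and 23 lower of 36. HTA7, a histone H2A, was an exception with 65.4 ± 4.53 CPM in seed coat and 13.7 ± 1.46 CPM in embryo (log2 fold change 2.25 ± 0.10, edgeR adjusted p = 6.20e-09). WRKY factors leaned the other way, with 16 of 29 higher and 2 lower, as did NAC factors with 14 of 34 higher and 4 lower. WRKY47, NAC3, ANAC087 and NAC038 had 0 reads in embryo and NAC6 had 1, while NAC042 had 1 in seed coat. For these factors inclusion in the test and direction are tied. WRKY6 had 124, 73.4 and 158 CPM in seed coat and 5.04, 1.88 and 4.62 CPM in embryo (log2 fold change 4.93 ± 0.64, edgeR adjusted p = 6.30e-05). WRKY75 had 4.08 ± 0.792 CPM in seed coat and 0.156 ± 0.0436 CPM in embryo (log2 fold change 4.62 ± 0.34, edgeR adjusted p = 4.70e-07). F-box proteins gave 57 higher and 13 lower of 157, but 29 higher and 61 lower when scaled to total reads. Under that scaling 9 ribosomal protein genes were higher and 273 lower, no pentatricopeptide gene was higher and 197 were lower, WRKY factors stood at 11 and 6 and NAC factors at 12 and 9. These classes were chosen with other results of the data in view, and their sizes and medians are descriptions.

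Among the MYB factors, 16 of 44 rose and 11 fell, beside 24.4% higher and 22.2% lower over all genes tested. The 3 with the smallest p among those that rose were MYB101, MYB65 and MYB33, the Arabidopsis relatives of GAMYB, a gibberellin-responsive factor of cereal aleurone. MYB101 had 99.4, 79.5 and 83.1 CPM in seed coat and 0.192, 0.323 and 0.0563 CPM in embryo (log2 fold change 8.77 ± 0.29, edgeR adjusted p = 3.14e-10). MYB65 had 44.6, 41.2 and 36.9 CPM in seed coat and 3.88, 4.46 and 4.34 CPM in embryo (log2 fold change 3.27 ± 0.11, edgeR adjusted p = 3.61e-10). MYB33 had 84.0, 74.0 and 74.4 CPM in seed coat and 10.5, 11.9 and 9.63 CPM in embryo (log2 fold change 2.86 ± 0.13, edgeR adjusted p = 6.39e-09). All 3 were higher in every seed coat library. Scaled to total reads, 11 MYB factors were higher and 20 lower. MYB60 and MYB112 had 39 and 70 reads in seed coat and 1 and 3 in embryo. For these MYB factors inclusion in the test and direction are tied. MYB34 and MYB74 had 15 and 14 reads in seed coat and 2 and 3 in embryo. MYB30 was lower in seed coat, with 4.53, 2.56 and 6.80 CPM in seed coat and 56.2, 20.4 and 40.1 CPM in embryo (log2 fold change -3.10 ± 0.47, edgeR adjusted p = 0.000215). Transporters of the UMAMIT type, which move amino acids, included UMAMIT20 at 65.2, 68.9 and 68.2 CPM in seed coat and 0.144, 0 and 0.169 CPM in embryo (log2 fold change 9.22 ± 0.29, edgeR adjusted p = 1.53e-10). UMAMIT22 had 26.9, 28.4 and 34.9 CPM in seed coat and 2 reads in all embryo libraries, a ratio of 842 (95% counting interval 233 to 6965) (edgeR adjusted p = 8.99e-10).

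Beyond the lists, the genes with the largest rises included enzymes of secondary metabolism and lipids and several with little annotation. CYP705A4, a cytochrome P450, had 64.8, 65.3 and 65.1 CPM in seed coat and 0 reads in embryo, at least 412-fold higher (edgeR adjusted p = 2.07e-09). KCS5, a ketoacyl-CoA synthase of wax lipids, had 16.8, 13 and 15.5 CPM in seed coat and 0 reads in embryo, at least 95.4-fold higher (edgeR adjusted p = 1.47e-08). NSP2, the nitrile specifier protein that directs glucosinolate breakdown in seeds, had 8987, 12620 and 12990 CPM in seed coat and 19.5, 27.2 and 37.7 CPM in embryo (log2 fold change 8.68 ± 0.31, edgeR adjusted p = 4.87e-10). BGLU19, a beta-glucosidase, had 10530, 11160 and 14100 CPM in seed coat and 1358, 1283 and 1967 CPM in embryo (log2 fold change 2.96 ± 0.22, edgeR adjusted p = 4.42e-07). AT3G62730, annotated as desiccation-like, AT2G34317, annotated as avirulence induced, and AT2G25330, a TRAF-like protein, had 15.5 ± 3.47, 16.7 ± 1.89 and 11.9 ± 1.62 CPM in seed coat (SD, n = 3) and 0 reads in embryo, at least 97.8-, 106- and 75.3-fold higher. AT3G23175, annotated as lesion-inducing, had 92.6 ± 6.39 CPM in seed coat and 0.0706 ± 0.0323 CPM in embryo. AT2G39420, an alpha/beta-hydrolase, had 33.6 ± 6.59 CPM in seed coat and 1 read in embryo, a ratio of 1980 (95% counting interval 355 to 78250), and AT1G14960 had 85.7 ± 4.18 CPM in seed coat and 3 reads in embryo, a ratio of 1646 (95% counting interval 563 to 7983).

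Those with the largest falls included factors of leaf and organ growth, cell surface proteins and a defence enzyme. TGG1, the myrosinase that cuts glucosinolates, had 0.533, 1.28 and 0.733 CPM in seed coat and 47.4, 61.7 and 53.4 CPM in embryo (log2 fold change -5.98 ± 0.31, edgeR adjusted p = 1.17e-07). GRF5 (AT3G13960), a growth-regulating factor of leaves, had 0.799, 1.21 and 0.523 CPM in seed coat and 57.0, 44.9 and 38.9 CPM in embryo (log2 fold change -5.74 ± 0.38, edgeR adjusted p = 1.58e-07). HB33, a zinc finger homeodomain factor, had 0.466, 1.36 and 0.733 CPM in seed coat and 56.8, 46.3 and 41.4 CPM in embryo (log2 fold change -5.82 ± 0.29, edgeR adjusted p = 1.05e-08). All 3 were below 2 CPM in every seed coat library. BLH2, a BEL1-like homeodomain factor, had 0.267, 0.528 and 0.105 CPM in seed coat and 14.1, 15.5 and 12.7 CPM in embryo (log2 fold change -5.44 ± 0.29, edgeR adjusted p = 2.02e-08). CWLP, a linker of cell wall and plasma membrane, had 0.799, 1.06 and 0.942 CPM in seed coat and 43.1, 39.0 and 29.6 CPM in embryo (log2 fold change -5.32 ± 0.24, edgeR adjusted p = 5.11e-09). Each was far higher in every embryo library. AT5G15780, the pollen allergen-like gene, had 21.9, 37.0 and 20.1 CPM in seed coat and 1245, 1137 and 908 CPM in embryo (log2 fold change -5.38 ± 0.32, edgeR adjusted p = 6.44e-08). AT1G62510 had 16.9, 28.9 and 16.8 CPM in seed coat and 916, 943 and 668 CPM in embryo (log2 fold change -5.33 ± 0.27, edgeR adjusted p = 1.34e-08). The transporter ABCC9 and the peptidase scpl35 fell by 5.31 and 5.38 on the log2 scale. No seed coat library of these genes reached the lowest embryo library, which the rule that chose them requires.

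Ranked by TPM, the tissues shared several leaders. The 8 highest in seed coat were EPR1, RAB18, LCR67, AT5G35660, AT1G14950, SESA5, AT1G54870 and OLEO1, and the 8 highest in embryo were LCR67, SESA5, RAB18, PAP85, EM6, OLEO1, CRA1 and M17. LCR67, a small defensin-like protein, had 39390 ± 1955 TPM in seed coat and 75270 ± 6971 TPM in embryo. SESA5 had 13980 ± 2153 TPM in seed coat and 62910 ± 3267 TPM in embryo, and RAB18 (AT5G66400) had 48770 ± 3932 TPM in seed coat and 29350 ± 6957 TPM in embryo (SD, n = 3). AT5G35660, a glycine-rich protein, had 13220, 19870 and 19870 CPM in seed coat and 4732, 6202 and 8366 CPM in embryo (log2 fold change 1.46 ± 0.25, edgeR adjusted p = 0.000524). AT1G54870, an oxidoreductase of the Rossmann-fold family, had 12090, 11900 and 12510 CPM in seed coat and 5604, 6537 and 7649 CPM in embryo (log2 fold change 0.88 ± 0.16, edgeR adjusted p = 0.000871). In CPM, LCR67 had 11330, 12540 and 11350 CPM in seed coat and 18440, 16520 and 17950 CPM in embryo (log2 fold change -0.59 ± 0.15, edgeR adjusted p = 0.00643).

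Genes with large differences sometimes lay side by side. With the 15740 tested coding genes put in order along the chromosomes, 15 runs of at least 3 neighbours changed the same way by 4-fold or more, 13 of them higher and 2 lower in seed coat, with 47 genes in all. The longest held 4 genes, among them the MLP run on chromosome 1. On chromosome 2, CHI, AT2G43580 and AT2G43590, all annotated as chitinases, had 15.3, 124.9 and 91.7 CPM in seed coat and 0.314, 1.15 and 0.106 CPM in embryo. UGT73B1, UGT73B2 and UGT73B3, glucosyltransferases on chromosome 4, were higher by 2.89 to 3.55 on the log2 scale. CYP705A4 lay beside AT4G15390, an acyltransferase, and CYP702A5, both higher in seed coat. TI2, a trypsin inhibitor, and its knottin-like neighbours AT2G43530 and AT2G43535 formed a run that was lower, by 2.26 to 3.40 on the log2 scale. Neighbours of one family can share reads, and a tested gene may be parted from the next by genes with too few reads.

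The difference between the tissues was also seen in the mutant Atsdr4l-5 dig2, whose 6 libraries are separate samples. The disrupted genes themselves were not analysed here, so the mutant label is taken as given. There 5670 genes passed (34.9%), 2750 higher and 2920 lower in seed coat. Of the 3966 genes higher in Col-0 seed coat, 2084 were higher in the mutant as well (52.5% of the Col-0 genes and 75.8% of the mutant genes), and 56 were lower. Of the 3609 lower genes, 1982 were lower in the mutant too (54.9% and 67.9%), and 37 were higher. Among genes called at 2-fold or more in Col-0, 95.3% of the higher and 92.8% of the lower had the same sign in the mutant. EPR1 differed by 10.08 on the log2 scale in the mutant and 9.72 in Col-0, and the difference between genotypes did not pass (edgeR adjusted p = 0.640). ABI4 differed by -5.80 in the mutant and -5.70 in Col-0 (edgeR adjusted p = 0.942).

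A test of the difference between genotypes passed for 932 genes (5.74%), 328 with a greater value in the mutant and 604 with a smaller one; the fit with the replicate block gave 835 and 1744. Among storage proteins, SESA5 had a tissue difference of -0.36 in the mutant against -1.82 in Col-0 (difference 1.46, edgeR adjusted p = 0.00355), PAP85 of -0.26 against -1.88 (difference 1.62, edgeR adjusted p = 0.00258) and CRA1 of -0.66 against -1.96 (difference 1.3, edgeR adjusted p = 0.00981). EM6, with -2.74 against -2.11, did not pass (edgeR adjusted p = 0.144). NSP2 had 12620, 11030 and 10440 CPM in mutant seed coat and 1189, 1012 and 1257 CPM in mutant embryo, so that its tissue difference was 3.30 on the log2 scale in the mutant against 8.68 in Col-0 (difference -5.38, edgeR adjusted p = 4.16e-06). The smaller difference of NSP2 in the mutant lay in its embryos, where it was higher than in Col-0 embryos. XTH11, a xyloglucan enzyme, had 150.5, 151 and 176 CPM in mutant seed coat and 0.784, 0.398 and 1.12 CPM in mutant embryo, beside 75.3, 72.5 and 79.0 CPM in Col-0 seed coat and 4.89, 4.14 and 5.12 CPM in Col-0 embryo (difference 3.66, edgeR adjusted p = 1.20e-05). TCP14 had 11.1, 8.38 and 8.80 CPM in mutant seed coat and 33.8, 32.7 and 30.9 CPM in mutant embryo, so its difference was -1.79 in the mutant against -4.0 in Col-0 (difference 2.21, edgeR adjusted p = 5.61e-05).

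**Figure D5:**
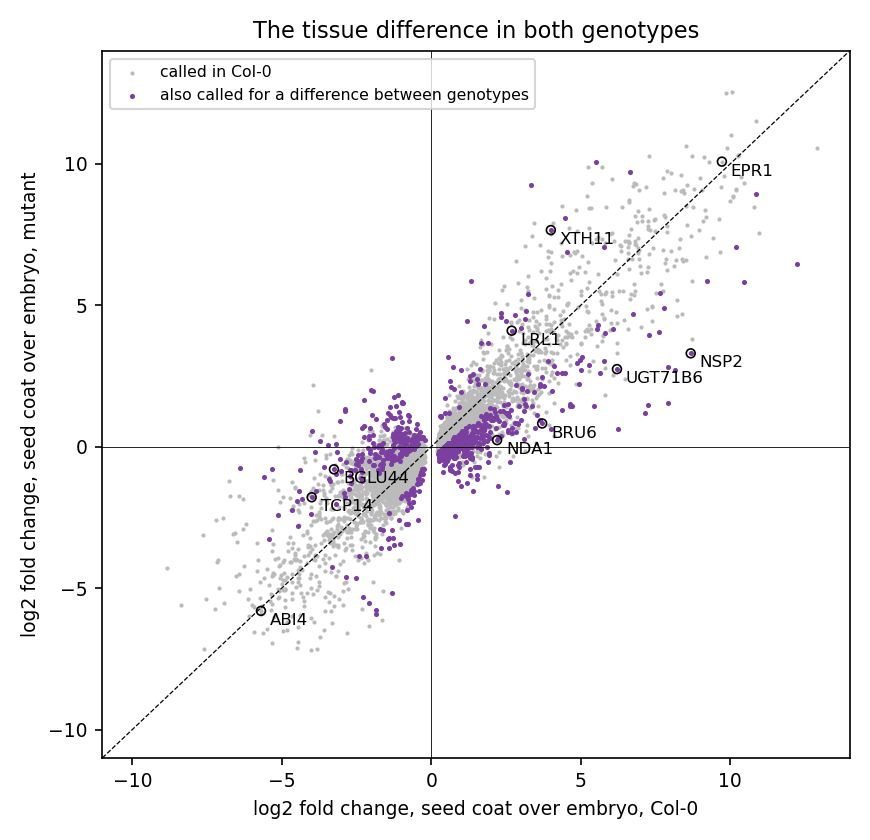
Log2 fold change of seed coat over embryo in the mutant (vertical axis) against that in Col-0 (horizontal axis) for the 7575 genes called in Col-0, with those also called for a difference between genotypes in purple and the line of equal values dashed. EPR1 and ABI4 lie close to the line, while NSP2 lies at 3.30 in the mutant and 8.68 in Col-0 and XTH11 at 7.66 and 4.0.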

How the data were processed

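Libraries from 12 seed samples were sequenced as RNA, and the labels place 3 in each of 4 groups. Per the submitters' processing notes the tools were bcl2fastq 2.19, fastp 0.12.4 and STAR 2.7.9a, with the TAIR10 genome. Their settings are not given in the sources used here. Values are whole-number read counts per gene deposited by the authors in STAR's format, with columns for unstranded, forward and reverse reads. The authors' combined count table equals the reverse-strand column in all 12 libraries, and that column was used, so a gene and its antisense partner are counted apart. The table lists 32833 genes, and its 4 summary entries were left out.

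From these counts, genes with few reads were dropped by filterByExpr (at least 10 in enough libraries and 15 in total), TMM set the scale of each library, and 1 mean per group was fitted over all 12 libraries with edgeR 4.0.16 in R 4.3.3 (quasi-likelihood F test, Benjamini-Hochberg over all genes tested, 8 residual degrees of freedom, common coefficient of biological variation 0.166). TPM used exon lengths of the RefSeq annotation, in which 32548 loci matched. Floors of 3 reads and 95% exact counting intervals cover counting error only. Upstream sequences came from RefSeq TAIR10.1, for the 3 most abundant genes each way changed 4-fold or more whose window overlaps no other coding gene; 1 of these windows is not reported here.

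Genes named are the 12 largest changes each way with at least 10 CPM in the higher tissue and no overlap, the 8 highest by TPM in each tissue, up to 3 members per list and direction with the smallest p, and the 4 genes each way that rank first by p in the test between genotypes. Other members were named for their known role after their values were seen. Members and lists were chosen with earlier results of these data known. Names in the lists that pointed to a neighbouring or related locus were corrected against the reference.

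Replicate numbers are shared by the groups. Deviations from the tissue means correlated at 0.40, 0.46 and 0.27 between seed coat and embryo libraries of the same number and at -0.32 to -0.05 between others, so same-numbered samples deviate together. The fit with the number as a block is given for some of the calls it changes. Of 138 list members not called, 40 gained a call under the block, and not all of them are named. Other alternatives were RLE size factors, scaling to total reads, scaling without reserve genes, no filter, unstranded counts, DESeq2 1.42.0, the 6 Col-0 libraries alone and each Col-0 library left out.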

Additional observations from a re-analysis of the deposited data

Results flagged for a closer look

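The difference between seed coat and embryo itself differed between the genotypes for 932 genes by the interaction test (edgeR, adjusted p under 0.05), 328 with a greater value and 604 with a smaller value in the mutant than in Col-0. Values below are the log2 difference between tissues in the mutant, the same in Col-0, and the mutant value minus the Col-0 value.

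Among genes with a greater value in the mutant, XTH11 had 7.66 in the mutant and 4.0 in Col-0, a difference of 3.66 (edgeR adjusted p = 1.20e-05). TCP14 had -1.79 in the mutant and -4.0 in Col-0, a difference of 2.21. LRL1, a basic helix-loop-helix factor, had 171.4 ± 6.95 CPM in mutant seed coat and 9.97 ± 0.569 CPM in mutant embryo, against 441.5 ± 13.98 CPM in Col-0 seed coat and 68.3 ± 5.54 CPM in Col-0 embryo (SD, n = 3), a difference of 1.41 (edgeR adjusted p = 6.02e-05). BGLU44, a beta-glucosidase, had 11.1 ± 2.104 CPM in mutant seed coat and 19.3 ± 0.641 CPM in mutant embryo, against 3.06 ± 0.620 CPM in Col-0 seed coat and 29.4 ± 4.21 CPM in Col-0 embryo, a difference of 2.46 (edgeR adjusted p = 0.000112).

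Among genes with a smaller value in the mutant, NSP2 had 3.30 in the mutant and 8.68 in Col-0, a difference of -5.38. UGT71B6, a glucosyltransferase that conjugates abscisic acid, had 30.25 ± 4.29 CPM in mutant seed coat and 4.50 ± 0.222 CPM in mutant embryo, against 25.3 ± 3.17 CPM in Col-0 seed coat and 0.332 ± 0.00822 CPM in Col-0 embryo, a difference of -3.47 (edgeR adjusted p = 1.04e-05). BRU6, a GH3 enzyme that conjugates auxin, had 52.3 ± 8.86 CPM in mutant seed coat and 29.6 ± 2.98 CPM in mutant embryo, against 259 ± 40.9 CPM in Col-0 seed coat and 19.8 ± 1.98 CPM in Col-0 embryo, a difference of -2.89 (edgeR adjusted p = 1.20e-05). NDA1, a NAD(P)H dehydrogenase, had 131 ± 10.9 CPM in mutant seed coat and 111 ± 4.38 CPM in mutant embryo, against 62.0 ± 0.997 CPM in Col-0 seed coat and 13.4 ± 1.95 CPM in Col-0 embryo, a difference of -1.97 (edgeR adjusted p = 1.66e-05).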

How the results depend on the processing

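Of the alternatives run, scaling to total reads moved the counts of the Col-0 tissue calls most: 1635 genes were then higher and 8597 lower in Col-0 seed coat, 1000 and 3266 at 2-fold or more, against 3966, 3609, 1520 and 1615 with TMM. Of the genes called with TMM, 69.8% were called there, 40 with the other sign. Of the genes named in the report by the stated rules, 3 changed sign (STS at -0.11, HSP90.1 at -0.031 and CDKA;1 at -0.00695), and LACS7 stood at -0.23. Of 201 list members called, 41 lost the call and 13 changed sign; the cause was not tested. Every other alternative kept 82.5% to 99.99% of the called genes, with the sign changed for 4 under unstranded counts and for none elsewhere.

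With the replicate block 4929 genes were higher and 4279 lower; no called list member lost its call, and 40 of 138 not called gained one. The test between genotypes gave 835 and 1744 genes with the replicate block, against 328 and 604 without. With 1 Col-0 library left out, and so fewer samples, 3468 to 3690 genes were higher and 3059 to 3277 lower, 1463 to 1606 and 1488 to 1615 at 2-fold or more, and 221 to 266 and 404 to 522 differed between genotypes. Of the 201 list members called, 167 kept the call whichever library was left out and 34 lost it at least once. Genes with a few reads per library in the lower tissue have bounds and not folds, and a small difference in them was not detectable at this depth.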

Other observations

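Other product classes, chosen with other results of these data in view, are given as descriptions, beside 24.4% higher and 22.2% lower over all genes tested. Genes annotated as peroxidase superfamily gave 6 of 10 tested higher and 2 lower in Col-0 seed coat, the same counts under total-read scaling. DOX1, an alpha-dioxygenase with 0 reads in embryo, carries the same annotation and is one of the 6. PER4, also among them, had 69 reads in seed coat and 2 in embryo. For DOX1 and PER4 at least, inclusion in the test and direction are tied. AT1G71695 had 66.7 ± 3.41 CPM in seed coat and 10.4 ± 1.25 CPM in embryo (SD, n = 3; log2 fold change 2.68 ± 0.12, edgeR adjusted p = 6.20e-09), and AT3G28200 ran the other way at 4.03 ± 0.607 CPM in seed coat and 10.6 ± 1.92 CPM in embryo (edgeR adjusted p = 4.06e-05). Subtilases, a family of proteases, gave 0 of 13 higher and 7 lower, among them AT3G14240 at 0.724 ± 0.125 CPM in seed coat and 4.95 ± 1.54 CPM in embryo (edgeR adjusted p = 0.000409). Of 37 genes annotated with kinesin or tubulin 5 were higher and 15 lower, with TUB3 at 12.99 ± 2.37 CPM in seed coat and 29.0 ± 2.01 CPM in embryo (edgeR adjusted p = 0.000229). TUA1 was among those higher, at 29.0 ± 2.48 CPM in seed coat and 16.1 ± 0.608 CPM in embryo (edgeR adjusted p = 0.000111). Under total-read scaling 1 kinesin or tubulin gene was higher and 27 were lower.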
